A study of Mus musculus with 15 samples.

Results

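Trichostatin A (TSA), an inhibitor of histone deacetylases (HDACs), was compared with its vehicle dimethyl sulfoxide (DMSO) in primary mouse chondrocytes, the cells that make cartilage. The comparison used 3 TSA and 3 DMSO arrays of the 15 in the study, and every gene measured on them was a member. Tibiae, femurs and humeri of CD1 mouse embryos (embryonic day 15.5) were the source, and the cells were kept as a monolayer, so that the cultures held whatever other cells the digested long bones released. All groups received medium with ascorbic acid and β-glycerophosphate for 24 h. The TSA group received TSA and the DMSO group received the vehicle alone. The other 9 arrays, which entered the fit, were cultures given LY294002 (a PI3K inhibitor), UO126 (a MEK inhibitor) or SB202190 (a p38 inhibitor), with 3 arrays each. The unit of the TSA dose could not be read from the labels, so no concentration is given. The arrays of a group are named biological replicates by the study.

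HDACs remove acetyl groups from lysines of histones and of many other proteins. Acetylated histone tails are a mark of open, transcribed chromatin and are read by bromodomain proteins, whereas deacetylases act in corepressor complexes such as NuRD, Sin3 and CoREST that keep genes silent. TSA blocks the zinc-dependent deacetylases and not the sirtuins. In cartilage, Hdac4 is known as a brake on the maturation of chondrocytes, and HDAC inhibitors are widely known to arrest dividing cells.

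After 24 h with TSA, 3593 of 11751 genes were higher and 3333 were lower than with DMSO, with 1 probe set for each gene and a Benjamini-Hochberg adjusted p under 0.05 in limma. These are 30.6% and 28.4% of the genes tested, 58.9% in all, so a count over any group of genes has to be read against these shares. Of the genes past the threshold, 1228 were higher and 1069 lower by at least 2-fold, and 325 were higher and 245 lower by at least 4-fold. The median change over all genes was 0.00 on the log2 scale. The deposited signals had been scaled to the same trimmed mean on every array, so a shift common to all genes could not be seen. The TSA arrays lay wholly on 1 side of the DMSO arrays for 7440 genes, 63.3% of those tested. By arithmetic means alone, 2114 of 21155 probe sets that averaged 50 with TSA or with DMSO were at least 2-fold higher and 1812 at least 2-fold lower with TSA, whereas a single DMSO array differed from the mean of the other 2 by that much at 331 to 486 probe sets in both directions together. At the level of probe sets, 11914 of 21765 passed (54.7%), of which 6118 were higher (28.1%) and 5796 lower (26.6%). Against the mean of the other 3 inhibitors, with the same TSA arrays, 3878 genes were higher (33.0%) and 3781 lower (32.2%).

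A gene was tested if its mean signal reached 50, a low level on these arrays, in at least 1 of the 5 groups. This rule let in 588 genes through the TSA arrays alone, and a gene let in this way is brighter with TSA by construction. Without them, 3124 of 11163 genes were higher and 3333 lower. Lists rich in genes that are dim in chondrocytes are therefore given below with and without the genes let in by TSA alone, a reading added after the values were seen. The rule works the other way too: a gene let in only by other groups is dimmer with TSA than in at least 1 of them. Such genes were not set aside, so the counts of lower genes include them.

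The arrays of a group resembled each other, with Pearson correlations of log2 signals of 0.976 to 0.978 among TSA arrays and 0.967 to 0.976 among DMSO arrays, against 0.842 to 0.854 between the groups. The median signal was 34.3 to 37.9 on the TSA arrays and 34.0 to 40.0 on the DMSO arrays, and the 3' to 5' signal ratio of Gapdh, a sign of RNA integrity, was 0.854 to 0.963 with TSA and 0.823 to 0.888 with DMSO. The chondrocyte markers Col2a1, Col9a1, Acan, Matn1, Sox9, Hapln1 and Cnmd had signals above 50 on all 6 arrays. Col9a1, a cartilage collagen, had 3178, 3609 and 3452 with TSA and 3718, 4767 and 5454 with DMSO, and Col2a1 overlapped between the groups. For Acan, Matn1, Sox9, Hapln1 and Cnmd every TSA array lay under every DMSO array. Cnmd had 406, 460 and 747 with TSA and 3404, 4338 and 5171 with DMSO. Skeletal and cardiac muscle markers were also present, and their summed signal over 34 genes was 784 to 875 with TSA and 1979 to 4231 with DMSO. The summed signal of 19 macrophage and leukocyte markers was 795 to 946 with TSA and 1231 to 1413 with DMSO. Of the markers that define endothelium, Pecam1, Cdh5, Tie1 and Emcn stayed under the threshold in every group, but Kdr had 51.8, 80.6 and 73.0 with TSA and 54.1, 78.2 and 82.5 with DMSO. Of 16 endothelial genes on the array, 6 reached 50 with TSA and 5 with DMSO. Ptprc and C1qa, which define leukocytes and macrophages, stayed under the threshold, whereas Lyz2, Csf1r, Adgre1 and Cd68 were tested. In such bulk samples, fewer cells of a type and less RNA per cell cannot be told apart, and the part of other cells in the results that follow was not tested.

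**Figure D1:**
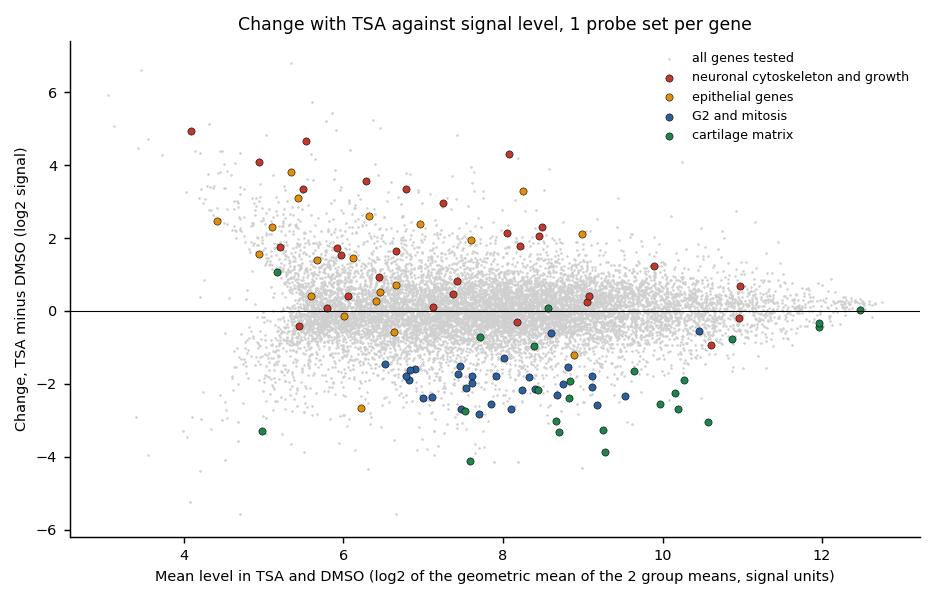
Each point is a gene, placed by its mean level in the TSA and DMSO groups (x axis, log2 signal) and by its change, TSA minus DMSO (y axis, log2). G2 and mitosis genes (blue) and all but a few cartilage matrix genes (green) lie below 0, whereas many neuronal cytoskeleton (red) and epithelial genes (orange) lie above 0 at low mean levels. Of the genes plotted, 9 neuronal cytoskeleton and 8 epithelial genes were let in by the TSA arrays alone.

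Genes for the cartilage matrix were far lower with TSA. Of the 24 cartilage matrix genes tested, 21 were lower and 1 was higher, with a median change of -2.21 (all genes, 0.00). Changes are given as TSA minus DMSO on the log2 scale unless a fold is named. Acan encodes aggrecan, the large proteoglycan that gives cartilage its resistance to compression. Its signal was 407, 556 and 594 on the TSA arrays and 1938, 2305 and 3301 on the DMSO arrays. The groups did not overlap, and the change was -2.26 ± 0.21 (log2 ± SE, adjusted p = 2.34e-07). Matn3, a matrilin that links collagen fibrils with other matrix proteins, had 121, 170 and 198 with TSA and 1848, 2062 and 3252 with DMSO, 14.5-fold lower with TSA. Ucma, a secreted protein of immature chondrocytes, averaged 46.5 ± 7.78 with TSA and 799 ± 90.4 with DMSO (SD, n = 3 each), a change of -4.11. Matn1, Cytl1 and Epyc fell by 3.27, 3.31 and 2.69 on the log2 scale, with no overlap between the groups. The single matrix gene past the threshold in the other direction was Cilp2, at 68.3, 32.4 and 59.7 with TSA and 23.3, 26.9 and 22.3 with DMSO, which entered the test through the TSA arrays alone. Without the first TSA array it did not pass, which left 0 higher. Col2a1, the gene of type II collagen and the most abundant of the list, did not pass the test. Its signal was 5455, 6477 and 4970 with TSA and 3903, 6317 and 6880 with DMSO, a change of 0.02 ± 0.19 (adjusted p = 0.95). These groups overlapped.

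The small leucine-rich proteoglycans, which bind collagen fibrils and growth factors, were all lower: 11 of 11 tested, with a median change of -2.69, or -1.92 with signals under 50 set to 50. Chad and Epyc belong to the cartilage matrix list as well. Aspn (asporin) had 14.3, 15.6 and 13.7 with TSA and 749, 796 and 549 with DMSO. All TSA signals lay under 50, so that Aspn was at least 13.8-fold lower. Omd (osteomodulin) had 38.7, 29.8 and 29.3 with TSA and 462, 470 and 434 with DMSO, at least 9.10-fold lower. The abundant members moved less, with changes of -1.18 for Dcn (decorin) and -0.96 for Bgn (biglycan). Enzymes that mature collagen were mostly lower too. Of 21 tested, 16 were lower and 2 higher, among them Loxl3, a lysyl oxidase that crosslinks collagen (-2.73), and Pcolce, which helps remove the procollagen C-propeptide (-1.55). Loxl4 went the other way and averaged 1884 ± 168 with TSA and 733 ± 191 with DMSO (1.39). Of 22 genes for glycosaminoglycan synthesis and sulfation, 5 were higher and 10 lower, with a median of -0.30, and 3 were higher without the first or second TSA or the first or second DMSO array.

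The proteases that remodel matrix were also lower: 12 of 19 matrix proteases and inhibitors were lower and 3 higher, with a median of -1.005. Mmp14, a membrane-bound collagenase, averaged 186 ± 53.3 with TSA and 1307 ± 250 with DMSO (-2.83, adjusted p = 2.01e-08). Ctsk, the collagen-degrading cathepsin K, averaged 83.5 ± 36.0 with TSA and 484 ± 37.5 with DMSO (-2.62). Adamts5, an aggrecanase that the study had singled out, had 151, 182 and 203 with TSA and 501, 440 and 422 with DMSO (-1.36 ± 0.11, adjusted p = 7.69e-08). The groups did not overlap for any of these genes. Plat, tissue plasminogen activator, ran against the list and had 1070, 1039 and 1250 with TSA and 267, 234 and 239 with DMSO (2.18). Timp3, an inhibitor of metalloproteinases held in the matrix, was also higher (0.77).

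Maturation markers followed in part. Of 14 genes of hypertrophy and mineralization, 11 were lower and none was higher, with a median of -1.16. Mmp13, the collagenase of hypertrophic cartilage, had 412, 420 and 1140 with TSA and 2701, 3070 and 3500 with DMSO (-2.40, adjusted p = 1.98e-06). Panx3, a channel protein of prehypertrophic cells, had 32.1, 40.0 and 119 with TSA and 428, 412 and 550 with DMSO (-3.10). In both, the third TSA array was the highest of its group and still lay under every DMSO array. Pth1r, the receptor for parathyroid hormone-related protein, fell by 2.34 on the log2 scale. Col10a1, which defines hypertrophic chondrocytes, had 375, 515 and 916 with TSA and 220, 374 and 1049 with DMSO. Its arrays overlapped widely within and between the groups, and it did not pass the test (0.34 ± 0.56, adjusted p = 0.628).

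Among 17 transcription factors of chondrocytes, 10 were lower and 3 higher. Sox9, which directs cartilage formation, had 272, 219 and 398 with TSA and 826, 667 and 1007 with DMSO (-1.52 ± 0.23, adjusted p = 4.6e-05). Its partner Sox5 averaged 150 ± 45.2 with TSA and 307 ± 25.9 with DMSO (-1.08). Prrx1, a factor of limb mesenchyme, averaged 591 ± 45.7 with TSA and 1256 ± 114 with DMSO (-1.09). Sox6 had 294, 335 and 506 with TSA and 601, 450 and 549 with DMSO. Those groups overlapped, and the call (-0.53, adjusted p = 0.0228) was lost without any of 4 of the 6 arrays (adjusted p 0.0597 to 0.123). The counts for this list moved to between 1 and 5 higher and 6 and 9 lower when arrays were left out 1 at a time, with 1 higher without the third TSA array or the first DMSO array, 5 without the first TSA array and 6 lower without the second TSA array.

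**Figure D2:**
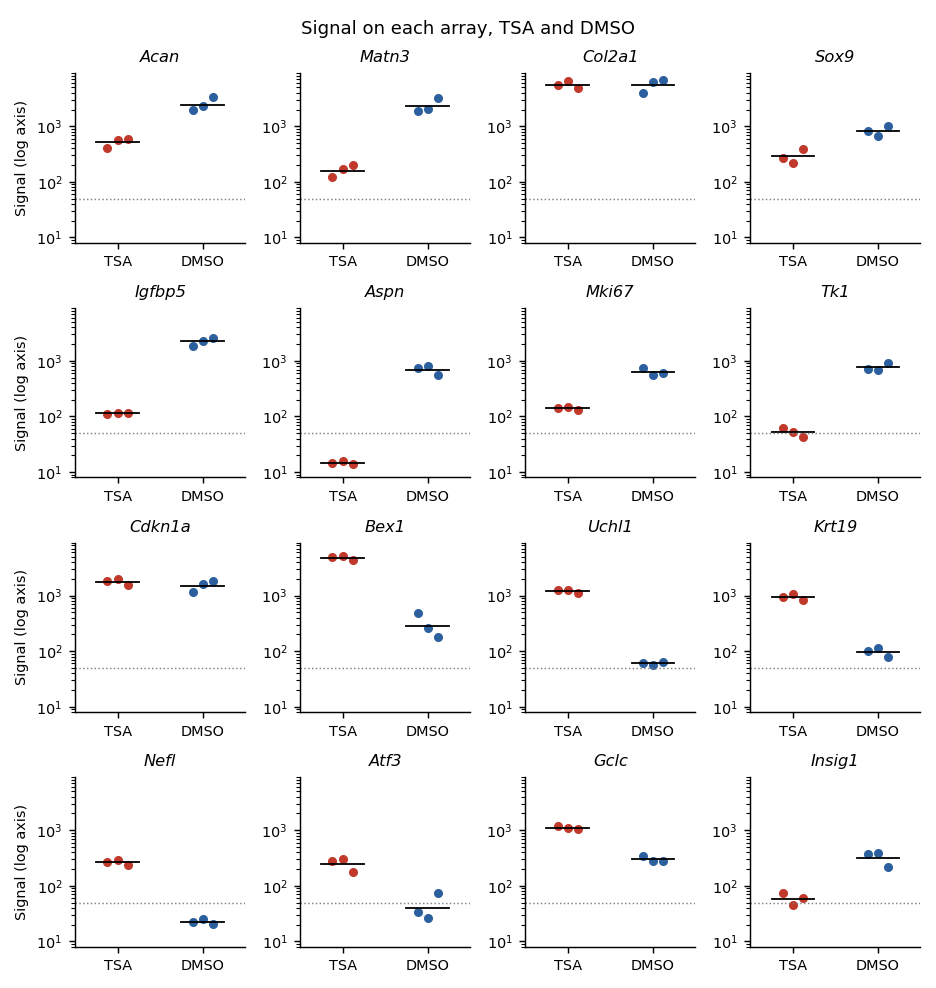
Signals of 16 genes on each array (y axis, log scale) for TSA (red, left) and DMSO (blue, right); the horizontal bar is the geometric mean and the dotted line a signal of 50. Col2a1 and Cdkn1a overlap between the groups, and the other 14 genes do not.

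The genes of dividing cells moved in 1 direction. All 30 tested genes of G2 and mitosis were lower with TSA, with a median change of -1.94. Birc5 (survivin), which acts in chromosome segregation, had 265, 247 and 203 with TSA and 1334, 1385 and 1498 with DMSO (-2.57 ± 0.10, adjusted p = 4.66e-11). Plk1, a kinase that drives entry into mitosis, had 111, 110 and 105 with TSA and 629, 713 and 751 with DMSO, 6.41-fold lower. Kif2c, a kinesin of the spindle, and Aurka, the kinase of the centrosome, fell by 2.84 and 2.68 on the log2 scale. In these 4 genes every TSA array lay under every DMSO array. Mki67, the usual marker of proliferating cells, had 142, 150 and 132 with TSA and 748, 570 and 609 with DMSO (-2.18).

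DNA replication and S phase genes were lower in 29 of 33 cases and higher in none, with a median of -1.09. Tk1 (thymidine kinase) had 61.6, 51.8 and 43.3 with TSA and 722, 682 and 925 with DMSO (-3.90 ± 0.15, adjusted p = 3e-11). Rrm2, a subunit of ribonucleotide reductase, had 508, 420 and 471 with TSA and 2406, 2473 and 2652 with DMSO, 5.39-fold lower. Mcm5, a subunit of the replicative helicase, averaged 203 ± 33.9 with TSA and 1176 ± 106 with DMSO (-2.54). Genes of homologous recombination and replication repair were lower in 16 of 18 cases with none higher (median -0.99). Of 17 cyclins and cyclin-dependent kinases (CDKs), 15 were lower, with Cdk1 at 328 ± 20.7 with TSA and 1303 ± 60.8 with DMSO (-1.99) and Ccnd1 (cyclin D1) at 638 ± 36.4 with TSA and 1905 ± 160 with DMSO (-1.58). The only member higher was Ccng2 (cyclin G2), at 405, 398 and 400 with TSA and 247, 236 and 192 with DMSO (0.84).

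The CDK inhibitors did not move as a group, with 2 of 8 higher and 3 lower, and only 1 higher without the first or second TSA or the third DMSO array. Cdkn1a, which encodes p21 and is the textbook gene raised by HDAC inhibitors, had 1794, 2019 and 1529 with TSA and 1155, 1623 and 1826 with DMSO. These groups overlapped, and the change of 0.23 ± 0.21 did not pass the test (adjusted p = 0.359). The signal was high in both groups. Cdkn1c (p57), which is expressed in maturing chondrocytes, averaged 2356 ± 161 with TSA and 3498 ± 604 with DMSO (-0.56, adjusted p = 0.00148). Of 22 p53 target genes, 11 were higher and 4 lower (median 0.40), and of 14 genes of the BCL2 family 8 were higher and 3 lower (median 0.36).

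**Figure D3:**
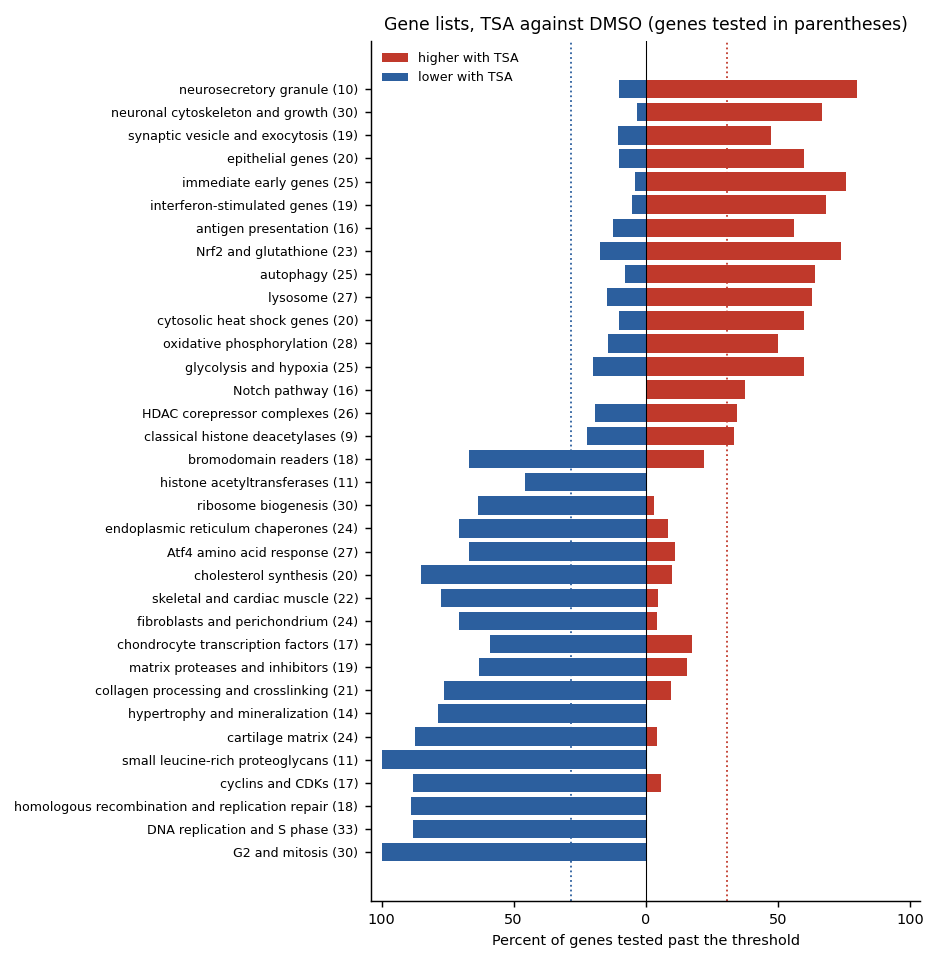
For each gene list, the share of tested genes past the threshold that was higher with TSA (red, to the right) and lower with TSA (blue, to the left); the number tested is in parentheses and the dotted lines mark the shares over all genes, 30.6% and 28.4%. Cell division and matrix lists extend to the left, and the neuronal, epithelial, early-response, immune and antioxidant lists to the right. The shares count genes let in by the TSA arrays alone, which are brighter with TSA by construction. Without them, 1 of 3 neurosecretory, 6 of 16 synaptic vesicle, 11 of 21 neuronal cytoskeleton and 5 of 12 epithelial genes were higher. Genes let in only by groups other than TSA are counted as well.

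A set of 34 genes had all 3 DMSO signals under 50, a TSA mean of at least 200 and a call in the test. They were chosen by these values, which are given as a description. Their TSA means ranged from 201.6 to 906.4 with a median of 309.8, and their median lower bound was 6.19-fold. Podxl2 lay just inside the limit with a TSA mean of 201.6, and Sult4a1 just outside with 198.8. On the 9 arrays of the other inhibitors, 21 of the 34 stayed under 50 on every array, and none reached 200 on any. The signal limits did not use these 9 arrays, but the fit and the choice of a probe set for each gene did.

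Bex4, an X-linked gene of the brain-expressed Bex family, had the highest level, with 1002, 932 and 785 with TSA and 39.1, 30.1 and 27.9 with DMSO, at least 18.04-fold higher. Mt3, the metallothionein best known from brain, had 659, 450 and 382 with TSA and 12.3, 23.4 and 11.3 with DMSO, at least 9.68-fold higher. In both genes the TSA arrays were far above the DMSO arrays. The windows upstream of their starts, with that of the Cdkn1a start that holds GC boxes, are shown because Sp1 sites of this kind in the Cdkn1a promoter are the textbook route of HDAC inhibitors to p21. They cover the 250 bases before the start, with the GC box GGGCGG in capitals where it occurs on the printed strand (RefSeq, build GRCm38.p6, plus strand): Bex4 at chrX:136138746-136138995, Mt3 at chr8:94152357-94152606 and the second Cdkn1a start at chr17:29093519-29093768.
Bex4: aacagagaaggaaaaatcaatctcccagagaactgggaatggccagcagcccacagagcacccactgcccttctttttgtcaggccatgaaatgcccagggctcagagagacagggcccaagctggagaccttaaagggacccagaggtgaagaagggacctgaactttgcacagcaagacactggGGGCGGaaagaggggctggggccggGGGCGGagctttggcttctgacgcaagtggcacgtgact
Mt3: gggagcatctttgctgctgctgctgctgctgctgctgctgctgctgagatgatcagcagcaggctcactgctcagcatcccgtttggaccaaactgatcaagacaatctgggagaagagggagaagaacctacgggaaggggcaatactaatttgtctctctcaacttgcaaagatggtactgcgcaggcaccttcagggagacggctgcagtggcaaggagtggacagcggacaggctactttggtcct
Cdkn1a: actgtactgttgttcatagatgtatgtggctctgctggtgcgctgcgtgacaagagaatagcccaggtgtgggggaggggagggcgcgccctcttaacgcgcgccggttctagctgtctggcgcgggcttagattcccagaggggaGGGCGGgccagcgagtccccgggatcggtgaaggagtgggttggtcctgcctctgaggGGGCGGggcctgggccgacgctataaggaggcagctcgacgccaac
The Bex4 and Cdkn1a windows hold 2 GC boxes each and the Mt3 window none. The Cdkn1a start was picked for its GC boxes, so finding them there is no result. The windows of the first Cdkn1a start and of Gtsf1, another bright switched-on gene, are not printed and hold none.

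Over all windows of 300 bases, from 250 before to 50 after a start, GGGCGG on either strand was found in 74.1% of 27 windows of switched-on genes, in 67.7% of 3794 windows of genes higher with TSA, in 60.2% of 3433 windows of genes lower with TSA and in 62.7% of the 12255 windows of all genes tested. The share in the whole RefSeq table was 35.7% of 32851 windows. The table held windows for 21 of the 34 switched-on genes and for 9517 of the 11751 genes tested. CCAAT was found in 33.3%, 38.0% and 36.9% of the switched-on, higher and lower windows, against 37.2% of all tested, and TATAAA in 11.1%, 6.83% and 7.98%, against 7.55%. The E box CACGTG was found in 7.41%, 9.57% and 9.73%, against 9.82%. The cAMP element TGACGTCA was found in 0% of the switched-on windows and in 3.37% and 2.42% of the higher and lower windows, against 2.97%, and the AP-1 site TGANTCA in 7.41%, 5.25% and 4.98%, against 5.08%. All motifs were read on both strands, none contains another, and a match is only a description of the sequence.

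Several of the switched-on genes belong to secretory and neuronal cells. Scg5, a chaperone of prohormone convertase in secretory granules, had 414, 447 and 389 with TSA and 4.49, 2.39 and 4.95 with DMSO, at least 8.33-fold higher. Vgf, a neuropeptide precursor, had 357, 333 and 309 with TSA and 10.2, 13.5 and 8.84 with DMSO, at least 6.64-fold higher. Pcsk1n, an inhibitor of prohormone convertase, had 351, 342 and 302 with TSA and 25.6, 26.7 and 12.1 with DMSO, at least 6.62-fold higher. The TSA arrays of these genes differed little among themselves. Crmp1, which guides axon growth, was at least 6.91-fold higher. Nrip3, Gprasp2, Tesc, Zcchc12, Fxyd7 and Qpct, also among the 15 brightest of the set, were at least 6.48-fold to 7.66-fold higher. The set also held genes of other tissues. Cldn9, a tight junction claudin, had 567, 458 and 484 with TSA and 17.3, 12.7 and 11.01 with DMSO (at least 10.0-fold higher). Gtsf1, a gene of the germline piRNA pathway, had 409, 456 and 398 with TSA and 36.4, 29.7 and 27.5 with DMSO (at least 8.41-fold higher). Rsad2 (viperin), an interferon-stimulated antiviral gene, had 486, 359 and 373 with TSA and 29.3, 36.6 and 23.7 with DMSO (at least 8.05-fold higher).

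**Figure D4:**
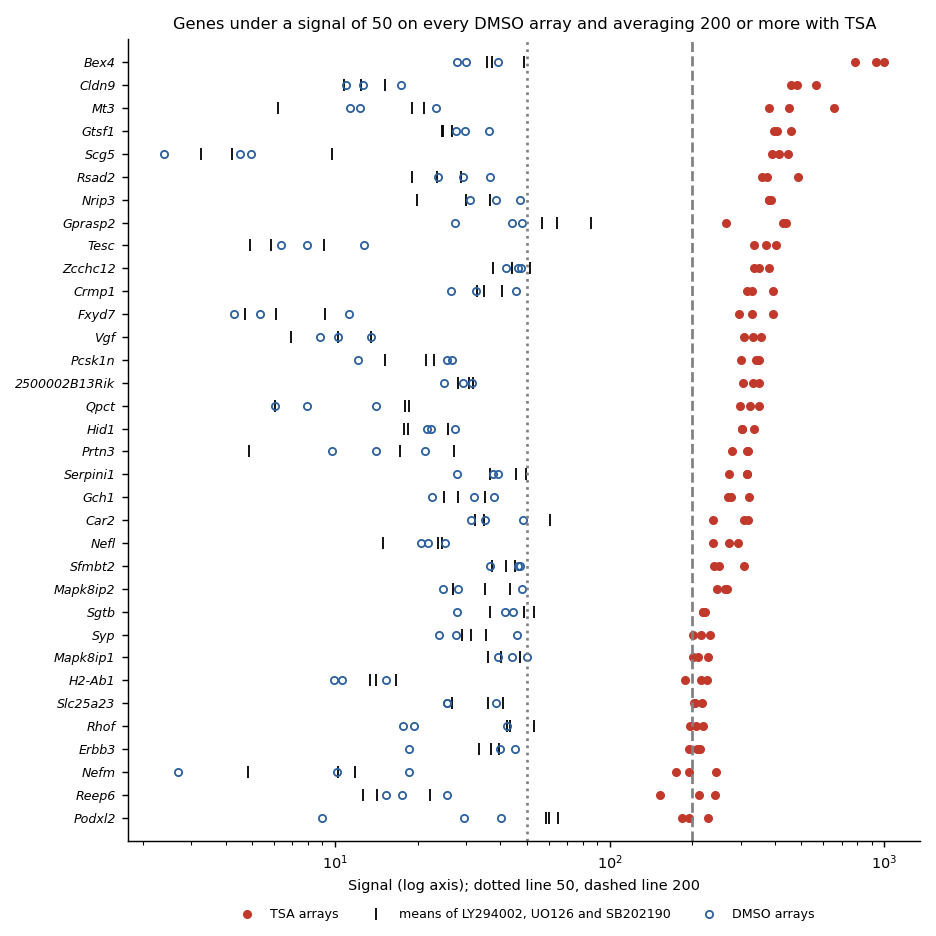
Signals (x axis, log scale) of the 34 switched-on genes on the TSA arrays (red), with the means of the other inhibitors (bars) and the DMSO arrays (open blue circles). Every DMSO array lies under the dotted line at 50, and no array of the other inhibitors reaches 200, with the highest, of Podxl2, at 94.5.

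Some of the largest rises were in genes known from neurons. Uchl1, a ubiquitin hydrolase abundant in neurons, had 1278, 1241 and 1095 with TSA and 61.6, 56.2 and 63.5 with DMSO (4.32 ± 0.19, adjusted p = 8.62e-11), 19.9-fold higher. Bex1 had 4895, 5214 and 4297 with TSA and 480, 262 and 183 with DMSO, 16.8-fold higher, and its DMSO arrays differed among themselves by more than its TSA arrays. Nnat (neuronatin), an imprinted proteolipid, had 840, 722 and 717 with TSA and 47.2, 39.8 and 61.8 with DMSO (3.96). Kif5c, a kinesin of neurons, and Map2, a dendritic microtubule protein, were 7.75-fold and 4.17-fold higher, and Nefl, the light neurofilament, was at least 5.34-fold higher (273, 293 and 238 with TSA, against 21.9, 25.1 and 20.6 with DMSO).

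Of 37 genes of the neuronal cytoskeleton and growth, 30 were tested, 20 were higher and 1 lower (Stmn1, -0.92), with a median of 1.60. Without the 9 members let in by the TSA arrays alone, 11 of 21 were higher and 1 lower, with a median of 0.68. Of 20 neurosecretory genes on the array, 10 were tested and 8 were higher, but 7 of the 10 had entered through TSA alone, and of the other 3, only 1 was higher and 1 lower. Of 31 synaptic vesicle genes on the array, 19 were tested, 9 were higher and 2 lower, or 6 and 2 of 16 without those let in by TSA. Syp (synaptophysin) had 216, 201 and 232 with TSA and 23.9, 46.2 and 27.5 with DMSO, at least 4.32-fold higher. Of the markers that define neurons, Snap25, Elavl3, Elavl4 and Rbfox3 stayed under the threshold in every group, whereas Tubb3, a neuronal tubulin, had 83.9, 60.7 and 58.6 with TSA and 20.8, 23.2 and 16.5 with DMSO (at least 1.34-fold higher). Of 26 neural transcription factors 9 were tested, with 4 higher and none lower, or 1 higher of 6 without the 3 let in by TSA (median 0.03). In the Bex and Tceal family, 7 of 12 tested were higher and 4 lower, or 6 and 4 of 11 without the gene let in by TSA.

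Epithelial genes were often higher as well. Of 30 on the array, 20 were tested, 12 were higher and 2 lower, with a median of 1.51, and without the 8 let in by TSA alone 5 of 12 were higher and 2 lower (median 0.61). Krt19, a keratin of simple epithelia, had 928, 1066 and 846 with TSA and 98.6, 116 and 78.9 with DMSO (3.29 ± 0.20, adjusted p = 3.91e-09). Krt18 had 1172, 1025 and 978 with TSA and 260, 249 and 230 with DMSO (2.10). Its partner Krt8 overlapped between the groups and did not pass the test (0.29, adjusted p = 0.318), and Krt7 was at least 3.71-fold lower. Pkp2, a desmosome protein, was 5.19-fold higher, and Cdh1 (E-cadherin) had only 96.4, 66.0 and 66.0 with TSA and 19.7, 16.4 and 10.9 with DMSO, at least 1.498-fold higher. Epcam had 347, 190 and 260 with TSA and 152, 1227 and 1165 with DMSO and did not pass the test (-1.22, adjusted p = 0.268). The first DMSO array stood apart from the other two for that gene. Claudins were higher in 6 of 10 tested, although 7 of the 10 had entered through TSA alone and none of the other 3 passed.

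Further large rises were in genes of varied function. Chchd10, a mitochondrial protein, had 1328, 1124 and 1263 with TSA and 69.7, 82.0 and 55.1 with DMSO (4.18). Krtap1-5, a hair keratin-associated protein, had 814, 767 and 649 with TSA and 42.8, 67.97 and 49.2 with DMSO (3.82). F11r, the junctional adhesion molecule A, averaged 593 ± 57.7 with TSA and 45.7 ± 7.25 with DMSO (3.70). Cystm1, Lrp11 and Cadm4 rose by 3.89, 3.52 and 3.32. All 6 are among the 12 largest rises, a list that took only genes whose TSA and DMSO arrays did not overlap.

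The reverse rule, with all TSA signals under 50 and a DMSO mean of at least 200, was met by 14 genes, and for 13 of them all 9 arrays of the other inhibitors were above 50. Besides Aspn and Omd they included Angptl7, a secreted angiopoietin-like protein, with 32.7, 43.7 and 30.04 with TSA and 496, 462 and 702 with DMSO (at least 10.9-fold lower). B3gnt9, a glycosyltransferase, had 39.2, 34.5 and 33.3 with TSA and 424, 477 and 579 with DMSO (at least 9.78-fold lower). Serpina3n, a secreted protease inhibitor, and Casp12, an inflammatory caspase, were at least 6.88-fold and 5.28-fold lower. Il17d, a secreted cytokine, and Masp1, a protease of the lectin complement pathway, were at least 5.28-fold and 4.87-fold lower. F13a1, the transglutaminase subunit of coagulation factor XIII and a gene the study had selected, had 29.0, 25.3 and 38.7 with TSA and 197, 233 and 204 with DMSO, at least 4.21-fold lower (adjusted p = 1.51e-09). Among genes with at least 1 TSA array above 50, Igfbp5, which binds insulin-like growth factors (IGFs), fell far as well, with 112, 114 and 115 with TSA and 1890, 2301 and 2606 with DMSO (-4.30 ± 0.12, adjusted p = 2.78e-12). Scrg1, a small secreted protein of chondrocytes, had 81.9, 53.3 and 74.1 with TSA and 1032, 1327 and 1296 with DMSO (-4.14). Emilin1, a glycoprotein of elastic fibers, had 54.0, 62.0 and 53.5 with TSA and 732, 777 and 630 with DMSO (-3.66). The TSA signals of Scrg1 and Emilin1 lay close to the threshold of 50. C1qtnf3, Klk10, Ccn5 and Srpx, also among the 12 largest falls, fell by 4.13, 3.75, 3.73 and 3.70 on the log2 scale, each with at least 1 TSA array under 50.

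Of the 11 classical HDAC genes 9 were tested, and Hdac8 and Hdac9 stayed under the threshold. Of the 9, 3 were higher (33.3%) and 2 lower (22.2%), against 30.6% and 28.4% of all genes. Hdac1, a nuclear deacetylase of corepressor complexes, had 1487, 1397 and 1483 with TSA and 1237, 1106 and 1167 with DMSO (0.32, adjusted p = 0.00849). Hdac6, the cytoplasmic tubulin deacetylase, had 303, 345 and 297 with TSA and 158, 198 and 232 with DMSO (0.70, adjusted p = 0.00191). Hdac7 had 131, 153 and 122.99 with TSA and 193, 249 and 260 with DMSO (-0.78, adjusted p = 0.000104). In these 3 genes the groups did not overlap. Hdac5 (0.43, adjusted p = 0.0161) and Hdac2 (-0.18, adjusted p = 0.0394) also passed, but Hdac5 lost the call without the second TSA, the first DMSO or the second DMSO array (adjusted p 0.0573 to 0.0644) and Hdac2 without any of 5 of the 6 arrays (adjusted p 0.0512 to 0.107). Hdac4 had 90.0, 91.7 and 94.9 with TSA and 90.0, 94.6 and 87.3 with DMSO, a change of 0.03 ± 0.11 (adjusted p = 0.871). Hdac3 (0.13, adjusted p = 0.233), Hdac10 (-0.16, adjusted p = 0.363) and Hdac11 (0.04, adjusted p = 0.901) did not pass either. Sirt7, a sirtuin of the nucleolus that TSA does not block, was 2.76-fold higher (611, 557 and 614 with TSA, 222, 209 and 214 with DMSO).

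Histone acetyltransferases were lower in 5 of 11 cases and higher in none (median -0.29), or lower in 3 without the second TSA array, among them Crebbp, which encodes CBP (-0.56), and Kat2a (-0.64). Bromodomain readers were lower in 12 of 18 cases and higher in 4 (median -0.52), or higher in 2 without the second or the third TSA or the third DMSO array. Atad2, a bromodomain ATPase of proliferating cells, had 257, 148 and 194 with TSA and 685, 501 and 529 with DMSO (-1.54). Brd9, a subunit of a SWI/SNF complex, averaged 146 ± 8.91 with TSA and 328 ± 31.0 with DMSO (-1.16), whereas Baz2a, a reader in the silencing of ribosomal genes, averaged 517 ± 42.0 with TSA and 254 ± 28.2 with DMSO (1.03). Of 26 genes of HDAC corepressor complexes, 9 were higher (34.6%) and 5 lower (19.2%), against 30.6% and 28.4% of all genes. Without the second TSA or the third DMSO array, 3 were lower. The NuRD subunits Chd3 and Mbd3 fell by 1.61 and 1.36 on the log2 scale, with no overlap between the groups.

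Of 23 Polycomb and DNA methylation genes, 6 were higher (26.1%) and 5 lower (21.7%), under the 30.6% and 28.4% of all genes. Uhrf1, which brings the maintenance methyltransferase to replicating DNA, had 171, 166 and 160 with TSA and 655, 481 and 417 with DMSO (-1.62), and that enzyme itself, Dnmt1, averaged 460 ± 14.9 with TSA and 757 ± 74.7 with DMSO (-0.71). The 2 histone H3 lysine methyltransferases of Polycomb went opposite ways, with Ezh1 at 130, 145 and 195 with TSA and 69.0, 65.8 and 76.0 with DMSO (1.14) and Ezh2 at 375, 449 and 425 with TSA and 616, 494 and 521 with DMSO (-0.38). Jarid2, a Polycomb cofactor, rose by 1.195, and Bmi1 fell by 1.05. Of 10 linker and variant histones 4 were higher and 4 lower. H1f2 averaged 3494 ± 694 with TSA and 1530 ± 194 with DMSO (1.18), and H2aj averaged 2172 ± 150 with TSA and 925 ± 70.9 with DMSO (1.23). Cenpa, the histone of the centromere, had 168, 141 and 146 with TSA and 974, 858 and 1003 with DMSO (-2.64).

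**Figure D5:**
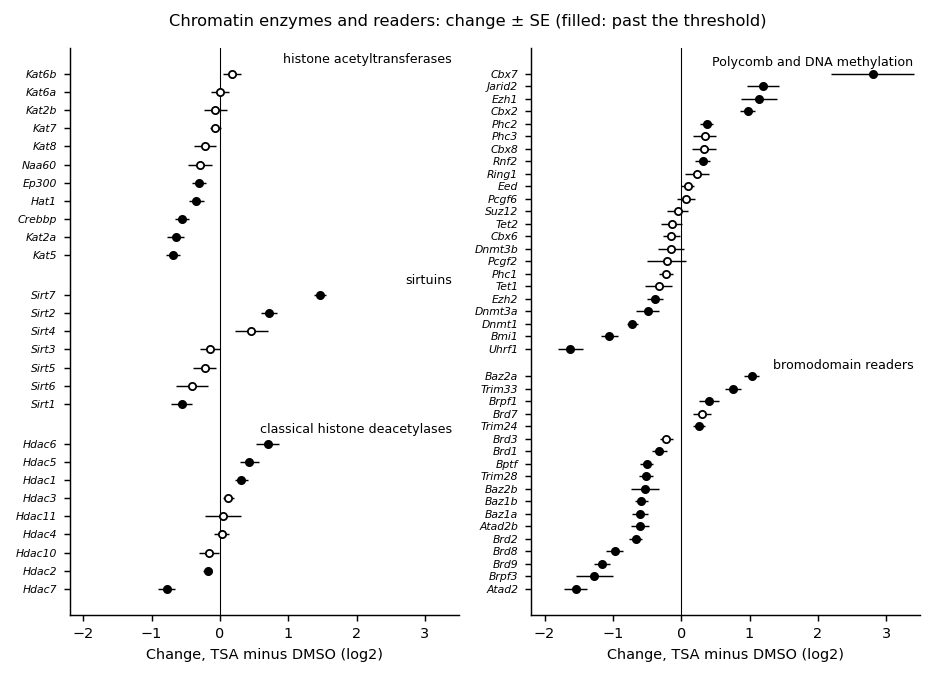
Change, TSA minus DMSO (x axis, log2, bars ± SE), of chromatin genes by list; filled points passed the threshold. The classical deacetylases lie within 1 log2 unit of 0, most bromodomain readers lie below 0, and Sirt7 and Cbx7 lie farthest above 0 in their lists.

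The IGF axis was lower at several points, with 3 of 17 genes higher and 8 lower. Besides Igfbp5, Igf1 averaged 84.9 ± 21.7 with TSA and 511 ± 74.1 with DMSO (-2.62), and Igfbp3 averaged 128 ± 8.18 with TSA and 715 ± 148 with DMSO (-2.47). Igfbp2 opposed them, with 1179, 1756 and 1273 with TSA and 203, 258 and 263 with DMSO (2.53 ± 0.21, adjusted p = 1.06e-07). Igf2, the abundant fetal ligand, overlapped between the groups at 5198 ± 751 with TSA and 5104 ± 1362 with DMSO (0.05, adjusted p = 0.821). In the fibroblast growth factor family, where 3 of 11 were higher and 5 lower (2 and 5 of 9 without the 2 let in by TSA), the ligand Fgf7 was 9.27-fold lower (42.8, 62.0 and 65.4 with TSA, 555, 547 and 456 with DMSO), and the receptor Fgfr3, which restrains the growth of cartilage, was 2.41-fold lower. Genes of the hedgehog and parathyroid hormone-related protein pathways were lower in 8 of 12 cases and higher in 1 (median -0.60), with Ptch1, the hedgehog receptor and target, at 952 ± 150 with TSA and 1287 ± 81.1 with DMSO (-0.45).

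Bone morphogenetic protein (BMP) ligands were higher in 6 of 8 cases and lower in 1, or in 4 and 1 of 6 without the 2 let in by TSA. Bmp2 had 374, 329 and 336 with TSA and 108, 70.8 and 74.6 with DMSO (2.06), and Bmp6 averaged 174 ± 28.9 with TSA and 60.2 ± 14.5 with DMSO (1.55). Known targets of BMP signalling were higher as well, Id1 at 3061, 2591 and 1840 with TSA and 1060, 933 and 1080 with DMSO (1.26) and Smad7, an inhibitory Smad, at 842 ± 129 with TSA and 334 ± 49.6 with DMSO (1.33). Over the whole list of 24 TGF-β and BMP response genes, 10 were higher and 7 lower, with a median of -0.02. Of 16 genes of the Notch pathway, 6 were higher and none lower, or 4 of 14 without the 2 let in by TSA (median 0.09), near the 30.6% of all genes. Among those that rose were Dtx1 (286, 342 and 273 with TSA, 51.4, 89.0 and 69.6 with DMSO, 2.13) and the receptor Notch3 (1.48). Wnt pathway and feedback genes were higher in 7 of 18 cases (38.9%) and lower in 4 (22.2%), against 30.6% and 28.4% of all genes. Among them, the feedback inhibitor Axin2 averaged 349 ± 26.5 with TSA and 136 ± 23.01 with DMSO (1.37), whereas the secreted antagonist Sfrp2 averaged 127 ± 15.9 with TSA and 723 ± 111 with DMSO (-2.50).

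Immediate early genes, which respond within minutes to many stimuli, were higher in 19 of 25 cases and lower in 1, with a median of 0.98. The third TSA array gave the lowest TSA signal for 19 of the 25. Over all genes tested it did so for 4031 of 11751, the share to read such counts against. It did so for 1 of 24 cartilage matrix and 1 of 14 hypertrophy and mineralization genes. Without the third TSA array 21 immediate early genes were higher, and without the first TSA array 12. Nr4a1, an orphan nuclear receptor and another gene the study had selected, had 1060, 1044 and 343 with TSA and 145, 191 and 178 with DMSO (2.09 ± 0.61, adjusted p = 0.00842). Atf3, a stress-induced transcription factor, had 280, 302 and 174 with TSA and 34.4, 26.0 and 74.9 with DMSO (2.59). Dusp1, a phosphatase of MAP kinases, had 4321, 4240 and 2174 with TSA and 808, 750 and 1002 with DMSO (2.01). For each, even the third TSA array was above every DMSO array. Fos had 2175, 3033 and 795 with TSA and 490, 608 and 383 with DMSO, but the call (1.84, adjusted p = 0.0449) was lost without any of 5 of the 6 arrays (adjusted p 0.063 to 0.159). Egr1 did not pass (0.77, adjusted p = 0.203). Fosl1 was the member that fell, with 88.6, 92.7 and 98.5 with TSA and 282, 324 and 371 with DMSO (-1.80). The list holds 4 Kruppel-like factors. Klf2, Klf4 and Klf10 rose by 1.59, 0.66 and 0.89, and Klf6 (0.66, adjusted p = 0.0204) lost its call without any of 4 of the 6 arrays (adjusted p 0.0564 to 0.0867). In the whole family 9 of 13 were higher and 1 lower.

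The same TSA arrays were also set against the mean of the LY294002, UO126 and SB202190 arrays, so both comparisons share the TSA samples and their values are given side by side. Uchl1 averaged 60.1 ± 9.55 with LY294002, 56.3 ± 8.47 with UO126 and 80.8 ± 23.4 with SB202190, and the TSA arrays were higher than these by 4.23 (against DMSO, 4.32). Against the other inhibitors Birc5 changed by -2.31 (against DMSO, -2.57), Igfbp5 by -4.08 (against DMSO, -4.30) and Sox9 by -1.45 (against DMSO, -1.52). Nnat was raised less against the other inhibitors (2.71) than against DMSO (3.96), and it averaged 142 ± 17.5 with LY294002 and 138 ± 10.8 with UO126. Cdkn1a, which had not passed against DMSO, averaged 1145.5 ± 213 with LY294002, 1529 ± 230 with UO126 and 1017 ± 274 with SB202190, and was higher with TSA than these (0.57 ± 0.17, adjusted p = 0.0083). Nr4a1 averaged 674 ± 398 with LY294002, 332 ± 161 with UO126 and 254 ± 150 with SB202190 and did not pass in that comparison (1.13, adjusted p = 0.0611). Col2a1 did not pass in either (-0.01 and 0.02). The differences between the comparisons were not tested.

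Antioxidant genes were higher: of 23 Nrf2 and glutathione genes, 17 were higher and 4 lower, with a median of 0.80. Gclc, the limiting enzyme of glutathione synthesis, had 1188, 1084 and 1049 with TSA and 339, 284 and 285 with DMSO (1.87 ± 0.10, adjusted p = 1.06e-09). Srxn1, Gsta4 and Gstm1 were 4.32-fold, 3.76-fold and 3.07-fold higher. The metallothioneins Mt1 (5284 ± 749 with TSA, 985 ± 163 with DMSO, 2.43) and Mt2 (1.90) rose with the switched-on Mt3. Cytosolic heat shock genes were higher in 12 of 20 cases and lower in 2 (median 0.43). The third TSA array gave the lowest TSA signal for 16 of the 20, and leaving out single arrays gave 11 to 13 higher. Hspb1, a small heat shock protein, had 5006, 5674 and 4278 with TSA and 644, 859 and 753 with DMSO, 6.63-fold higher, and Hspa1a, an inducible Hsp70, averaged 410 ± 29.3 with TSA and 45.3 ± 9.07 with DMSO (3.19).

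The endoplasmic reticulum went the other way. Of 24 chaperone and folding genes there, 17 were lower and 2 higher (median -0.45), with Herpud1, a degradation factor, at 108, 90.9 and 140 with TSA and 603, 615 and 639 with DMSO (-2.48) and Xbp1, the transcription factor of secretory cells, at 912 ± 37.8 with TSA and 2200 ± 68.8 with DMSO (-1.27). Genes of the Atf4 amino acid response were lower in 18 of 27 cases and higher in 3 (median -0.66). Atf4 itself had 834, 836 and 832 with TSA and 1738, 2125 and 2333 with DMSO (-1.30), and its target Mthfd2, a mitochondrial enzyme of folate metabolism, was 4.79-fold lower. None of these 4 genes overlapped between the groups.

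Of 20 genes of cholesterol synthesis, 17 were lower and 2 higher, with a median of -0.86. Insig1, the sterol sensor, had 74.9, 45.4 and 59.5 with TSA and 378, 392.4 and 221 with DMSO (-2.45), Cyp51, a demethylase of the pathway, averaged 201 ± 16.1 with TSA and 808 ± 149 with DMSO (-1.99), and Lss (lanosterol synthase) averaged 147 ± 9.40 with TSA and 550 ± 83.0 with DMSO (-1.89). The 2 that rose were Hsd17b7 (1.12) and Dhcr7 (0.66). Fatty acid synthesis was mixed, with 5 of 18 higher and 9 lower. Fasn (fatty acid synthase) had 113, 114 and 127 with TSA and 653, 615 and 571 with DMSO (-2.38), and Acss2, which makes acetyl-CoA from acetate, had 497, 415 and 461 with TSA and 128, 136 and 113 with DMSO (1.87).

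Glycolysis and hypoxia genes were higher in 15 of 25 cases and lower in 5 (median 0.58). The glucose transporter Slc2a3 averaged 602 ± 21.5 with TSA and 119 ± 10.2 with DMSO (2.35), and Pfkp, a phosphofructokinase, averaged 925 ± 21.1 with TSA and 250 ± 26.0 with DMSO (1.89). Oxidative phosphorylation genes were higher in 14 of 28 cases and lower in 4, with smaller changes (median 0.28), and the third TSA array gave the lowest TSA signal for 22 of the 28. Leaving out single arrays gave 11 to 15 higher. Lysosomal genes were higher in 17 of 27 cases and lower in 4, autophagy genes in 16 of 25 and 2, and subunits of the vacuolar proton pump in 11 of 14 and 1, with medians of 0.47, 0.54 and 0.71. Ribosome biogenesis genes were lower in 19 of 30 cases and higher in 1 (median -0.43), with Dkc1 (258 ± 47.2 with TSA, 742 ± 96.2 with DMSO, -1.53) and Nop56 (-1.49), both of the small nucleolar RNA machinery, in front. Splicing factors were lower in 23 of 45 cases and higher in 3, most of them by little (median -0.23), although Srsf6 was 3.33-fold lower.

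Interferon-stimulated genes were higher in 13 of 19 cases and lower in 1 (median 0.72), and in 6 and 1 of 12 (median 0.40) without the 7 let in by TSA alone. Antigen presentation genes were higher in 9 of 16 cases and lower in 2 (median 0.97), or in 6 and 2 of 10 (median 0.52) without those let in by TSA. With signals under 50 set to 50, the median of all 16 was 0.36. H2-K1, a class I molecule, had 2860, 2972 and 2623 with TSA and 957, 1362 and 1133 with DMSO (1.31 ± 0.12, adjusted p = 1.72e-07). The class II genes Cd74, the invariant chain, and H2-Ab1, which are usually confined to antigen-presenting cells, had 205, 287 and 286 with TSA and 51.3, 45.5 and 34.2 with DMSO (2.57), and 189, 226 and 215 with TSA and 10.6, 9.91 and 15.3 with DMSO (at least 4.19-fold higher). Psmb10, a subunit of the immunoproteasome, ran against the list and had 69.7, 55.3 and 49.2 with TSA and 288, 272 and 333 with DMSO (-2.37). Of the macrophage and leukocyte markers, 8 of 9 tested were lower and 1 higher, and their part in the class II signals was not tested. Lyz2 (lysozyme) had 57.9, 56.8 and 54.0 with TSA and 239, 276 and 256 with DMSO (-2.19), and Csf1r, the receptor that macrophages need, averaged 90.0 ± 5.29 with TSA and 145 ± 11.99 with DMSO (-0.68). Cd68, a lysosomal glycoprotein, was the exception, with 264, 303 and 309 with TSA and 67.0, 76.5 and 60.4 with DMSO (2.11).

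Skeletal and cardiac muscle genes were lower in 17 of 22 cases and higher in 1, with a median of -1.97, or -0.76 with signals under 50 set to 50. Of 34 on the array, 21 reached 50 on at least 1 DMSO array and 6 on at least 1 TSA array. Members let in only by groups other than TSA, and so dimmer with TSA than in at least 1 of them, are therefore among the 22. Acta1, skeletal actin, had 124, 81.0 and 82.1 with TSA and 430, 335 and 234 with DMSO (-1.78), and Myh3, the embryonic myosin, had 20.3, 24.5 and 12.5 with TSA and 198, 110 and 66.2 with DMSO (at least 2.26-fold lower). The DMSO arrays differed among themselves in both. Smooth muscle genes were lower in 7 of 10 cases, among them Acta2 (1972 ± 313 with TSA, 3231 ± 356 with DMSO, -0.72), and higher in 2, both let in by TSA alone. Without them 7 of 8 were lower and 0 higher. Myocd, one of the 2 and the coactivator that drives smooth muscle genes, had 206, 187 and 197 with TSA and 18.03, 22.4 and 18.8 with DMSO (at least 3.93-fold higher). Genes of fibroblasts and perichondrium were lower in 17 of 24 cases and higher in 1 (median -0.99), but Col1a1 overlapped between the groups at 4032 ± 566 with TSA and 4726 ± 1270 with DMSO (-0.20, adjusted p = 0.372). Hox genes, which pattern the limb, were lower in 8 of 15 cases and higher in none (median -0.51, or -0.11 with signals under 50 set to 50). Of 249 zinc finger genes, 36 were higher and 85 lower (median -0.20). Of 26 potassium channels 4 were higher and 13 lower, or 1 and 13 of 21 without the 5 let in by TSA. The median of all 26 was -0.67, but -0.07 with signals under 50 set to 50, so the fall rests on dim signals. Of 16 Eph receptors and ephrins 7 were higher and none lower, or 6 of 15 higher without the 1 let in by TSA. Of 35 germline genes on the array only 4 were tested, with 2 higher and none lower, or 1 higher of 3 without the gene let in by TSA (median -0.24). Phlda2, the last of the genes the study had selected, was dim, with 49.8, 50.7 and 55.2 with TSA and 96.3, 84.5 and 105 with DMSO (-0.87, adjusted p = 0.00499). The study had selected F13a1, Adamts5, Phlda2 and Nr4a1 from its LY294002 and DMSO arrays, gene set categories and arrays of microdissected growth plates. It then measured their response to LY294002 by RT-PCR. The paper describes no TSA array in that choice, but the DMSO arrays belong to this set, so these 4 calls are not independent evidence.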

How the data were processed

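Each culture was hybridised to a single Affymetrix Mouse Genome 430 2.0 array. The deposited values are signal intensities that the authors computed from the probes with MAS5 and scaled to the same trimmed mean on each array. They are no counts, and precision rests on 3 arrays a group. Of 45101 probe sets, 64 controls were left out; 34945 carried 1 gene symbol, 932 several and 9160 none in the platform annotation, and only the first kind was named. Signals were set to at least 1 and log2-transformed. Probe sets with a group mean of at least 50 in any of 5 groups were fitted with limma 3.58.1 (R 4.3.3; lmFit, eBayes with trend) over all 15 arrays, with Benjamini-Hochberg adjustment over all probe sets tested, and the probe set with the highest mean log2 signal stood for its gene. Probe sets of a gene passed in opposite directions for 86 genes. Where every array of a group was under 50, the fold is a bound, the geometric mean of the brighter group over 50. The adjusted p-values quoted are from limma, and values after ± are the SE of a log2 change or the SD over 3 arrays. The fit was tested on simulated data.

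The comparison, gene lists and naming rule were chosen with earlier results of these data known. Named genes were the 12 largest rises and falls, the 15 brightest switched-on genes and the 8 brightest switched-off genes, all classical HDACs, Cdkn1a, the genes the study selected and leading members of each list, of which a part is given with values. The largest rises and falls came only from genes past the threshold with a higher group mean of at least 200 and no overlap between the groups. Acan, Cilp2, Loxl4, Timp3, Mki67, Ccng2, Egr1, Insig1, Hsd17b7, Dhcr7, Klf6 and Sult4a1 were named after their values were seen. Promoter windows were RefSeq's; Cldn9 had none there. The alternatives tried were other scalings and filters, offsets, the 2 groups alone, another variance model, all probe sets of a gene averaged, and leaving out single arrays. Same-numbered TSA and DMSO arrays were not treated as pairs.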

Additional observations from a re-analysis of the deposited data

How the results depend on the processing

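Under quantile normalization 6193 probe sets were higher and 6124 lower with TSA, and with arrays centred on their medians 6110 and 5781. With no filter 6472 were higher and 5971 lower, with a mean of at least 100 over all arrays 4334 and 4616, and with the TSA and DMSO arrays alone 5796 and 5249. Leaving out single arrays gave 5583 to 5892 higher and 5229 to 5516 lower. Of the 6926 genes past the threshold, 5395 lost their call under none of the 15 alternatives that tested them, and 5569 kept it without each array in turn. A filter that left a gene out was not counted as a loss. Of 781 named or listed genes past the threshold 692 lost it under none that tested them, 89 lost it under at least 1, and none reversed. The median of 37 of the 132 lists and families changed sign or could not be computed under some alternative. For germline genes and a few other short lists, the mean of 100 over all arrays left no median, and the sign did not change elsewhere. Minority counts of 5 or fewer in the lists described moved by 1 or 2 genes without single arrays. Counts by fold rose with no filter, to 10129 higher and 10978 lower at 1.4-fold, 4395 and 3978 at 2-fold, 601 and 340 at 5-fold and 162 higher at 10-fold. With a mean of at least 100 in either group they were 201 higher at 5-fold and 62 higher at 10-fold. The switched-on set held 136 genes with a TSA mean of 100, 2 with 500, and 14 with a DMSO limit of 30. Dim signals limit what can be seen: where every array of a group was under 50 a bound stands in place of the fold, and where only some were, the log2 change rests on dim signals. Whether the replicate numbers pair the arrays was not settled. The correlations of deviations from the group means were 0.0958, 0.169 and 0.0479 within same-numbered pairs and -0.204 to 0.113 in the other pairs. The third TSA array correlated more with the first DMSO array (0.113) than with its own number. With the replicate number as a block, 6543 probe sets were higher and 6274 lower, against 6118 and 5796 without it.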
